A study of Mus musculus with 40 samples.

Results

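Transcript abundance was described for 37 genes of central carbon metabolism in the extensor digitorum longus (EDL), a fast hindlimb muscle of the mouse. They encode enzymes of the tricarboxylic acid (TCA) cycle, the carriers, dehydrogenase and carboxylase that handle mitochondrial pyruvate, and enzymes that break down branched-chain amino acids. The genes were a list of names drawn up by function, with earlier results of these data known, and matched to the gene symbols of the deposited tables. All 37 were among the 22844 genes of the tables, and all 37 were among the 13543 genes that reached 1 CPM (counts scaled to library size) in at least 5 libraries and were tested.

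The study asked how sustained activity of the kinase complex mTORC1 in muscle fibers relates to age-related muscle wasting. TSCmKO mice lacked Tsc1, an inhibitor of mTORC1, in skeletal muscle fibers. Controls (CON) were littermates homozygous for the floxed Tsc1 allele without Cre recombinase. All mice carried the label Tsc1tm1Djk/J for strain, so the floxed allele was common to both genotypes, and the promoter that drives Cre was not given in the sources used here. Mice of 3 or 9 months received injections into the peritoneum for 3 days, either of vehicle or of rapamycin (RM), which inhibits mTORC1. The label gives 4 mg per kg, but the study text states another dose for the same treatment, so the dose is uncertain. The 8 groups of 5 libraries were 3mCON, 3mCON+RM, 3mTSCmKO, 3mTSCmKO+RM, 9mCON, 9mCON+RM, 9mTSCmKO and 9mTSCmKO+RM. Here +RM marks rapamycin, the other groups had vehicle, and each prefix is the age in months.

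In muscle, pyruvate made by glycolysis enters mitochondria through a carrier and is turned into acetyl-CoA by the pyruvate dehydrogenase complex, which kinases switch off and phosphatases switch on by adding or removing phosphate. Acetyl-CoA is then oxidised in the TCA cycle, while pyruvate carboxylase and the breakdown of some amino acids refill its intermediates. Skeletal muscle is also a main site where leucine, isoleucine and valine are first transaminated and then oxidised by a branched-chain keto acid dehydrogenase (BCKDH) that has a kinase of its own.

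Total counts ran from 8883870 to 35224669 per library. Tsc1 ranged from 51.3 to 133.7 CPM in the CON libraries and from 17.8 to 35.8 CPM in the TSCmKO libraries, without overlap. The mean correlation of a library with the others of its group was 0.937 for 9mTSCmKO replicate 1, 0.961 for 9mTSCmKO replicate 3 and 0.965 for 9mTSCmKO+RM replicate 1, and 0.968 to 0.988 for the rest of the 40. Age cannot be told apart from library preparation, because the labels give inserts of 175 to 239 nt for the younger and 223 to 308 nt for the older mice. In RNA from a whole muscle, fewer cells of a type and less RNA per cell cannot be told apart. Per the study, each library is of the muscle of a separate mouse, so that p-values measure the spread between mice.

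Promoters are shown first for 5 members whose differences between groups are described below, because the results turn on them. Each sequence is the RefSeq window (GRCm38.p6) from 250 bases before to 50 bases after the annotated start, written 5′ to 3′ on the gene's own strand. Capitals mark CCAAT, the core of the box bound by NF-Y, or CCACCC, a core bound by Krüppel-like factors, on either strand. The windows were chrX:93832101-93832400 (minus strand) for Pdk3, chr7:80115301-80115600 (minus) for Idh2, chr11:21571885-21572184 (minus) for Mdh1, chr7:45569903-45570202 (plus) for Bcat2 and chr6:95718797-95719096 (minus) for Suclg2.
Pdk3: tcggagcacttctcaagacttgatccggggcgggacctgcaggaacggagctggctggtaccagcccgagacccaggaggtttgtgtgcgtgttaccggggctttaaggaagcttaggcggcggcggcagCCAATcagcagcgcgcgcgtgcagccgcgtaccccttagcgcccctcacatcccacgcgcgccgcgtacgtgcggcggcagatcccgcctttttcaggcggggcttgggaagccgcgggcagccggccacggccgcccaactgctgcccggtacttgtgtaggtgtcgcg
Idh2: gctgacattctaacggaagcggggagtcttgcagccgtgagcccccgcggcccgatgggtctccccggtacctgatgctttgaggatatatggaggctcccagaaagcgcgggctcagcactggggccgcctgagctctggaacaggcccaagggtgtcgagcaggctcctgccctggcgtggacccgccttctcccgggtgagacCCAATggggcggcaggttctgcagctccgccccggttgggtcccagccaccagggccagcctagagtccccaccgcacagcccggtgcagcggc
Mdh1: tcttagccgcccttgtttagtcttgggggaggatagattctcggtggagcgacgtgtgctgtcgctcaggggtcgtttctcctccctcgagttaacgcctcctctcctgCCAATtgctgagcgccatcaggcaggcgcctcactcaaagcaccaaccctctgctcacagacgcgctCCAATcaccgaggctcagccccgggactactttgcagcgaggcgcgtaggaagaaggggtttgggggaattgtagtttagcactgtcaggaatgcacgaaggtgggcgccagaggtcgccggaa
Bcat2: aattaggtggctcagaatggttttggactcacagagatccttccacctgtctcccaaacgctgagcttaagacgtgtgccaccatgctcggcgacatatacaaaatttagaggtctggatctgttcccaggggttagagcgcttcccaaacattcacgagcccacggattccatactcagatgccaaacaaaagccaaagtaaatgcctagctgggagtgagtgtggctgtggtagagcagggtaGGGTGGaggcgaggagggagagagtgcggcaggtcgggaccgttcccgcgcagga
Suclg2: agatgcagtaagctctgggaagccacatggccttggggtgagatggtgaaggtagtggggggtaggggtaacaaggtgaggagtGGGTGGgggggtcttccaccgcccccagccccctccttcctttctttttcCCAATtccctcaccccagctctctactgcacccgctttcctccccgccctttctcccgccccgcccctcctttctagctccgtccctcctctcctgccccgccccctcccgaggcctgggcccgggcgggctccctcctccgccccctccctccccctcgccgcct

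The CCAAT letters began at position -120 relative to the start in Pdk3, at -44 in Idh2, at -141 and -74 in Mdh1 and at -116 in Suclg2. The window of Bcat2 held no CCAAT but held CCACCC on the opposite strand at -5, and that of Suclg2 held it on the opposite strand at -166. A further window of Bcat2, from a second annotated start, held neither. The 34 members with an entry had 46 such windows. CCAAT was found in 63% of them and in 37.4% of all 32851 windows of the RefSeq table, and CCACCC in 32.6% and 31.5%. CACGTG, the E-box bound by several basic helix-loop-helix factors, was in 13% of member windows and 7.15% of all. AAGGTCA, the half-site of estrogen-related receptors, was in 2.17% and 4.72%. TGATGNAA, the core of the site of ATF4 with C/EBP proteins, was in 0 of the 46 windows and in 3.97% of all. No test was made, since several windows of a gene can overlap. Pdp1, Dbt and Idh3a had no entry.

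Most of these genes were abundant. In 9mCON, 21 of the 37 had a mean level of at least 100 TPM (a level scaled by transcript length and library size) and 9 had at least 500 TPM. The highest was Mdh2, the mitochondrial malate dehydrogenase, at 955 ± 118 TPM (mean ± SD of 5 libraries), followed by Idh3a, the catalytic subunit of the NAD-dependent isocitrate dehydrogenase, at 905 ± 132 TPM. Pdk2, the most abundant of the 3 kinase members, had 783 ± 165 TPM. Mdh2 and Idh3a, and Idh3a and Pdk2, differed by less than the spread between libraries. At the other end, Pcx, the pyruvate carboxylase, had 18.9 ± 5.54 TPM and Pdk3, another of the kinases, 0.802 ± 0.387 TPM. Members of branched-chain catabolism ran from 39.2 ± 8.68 TPM for Dbt to 197 ± 23.8 TPM for Bckdk, and the lowest member of the TCA cycle was Suclg2 at 47.9 ± 10.9 TPM.

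**Figure D1:**
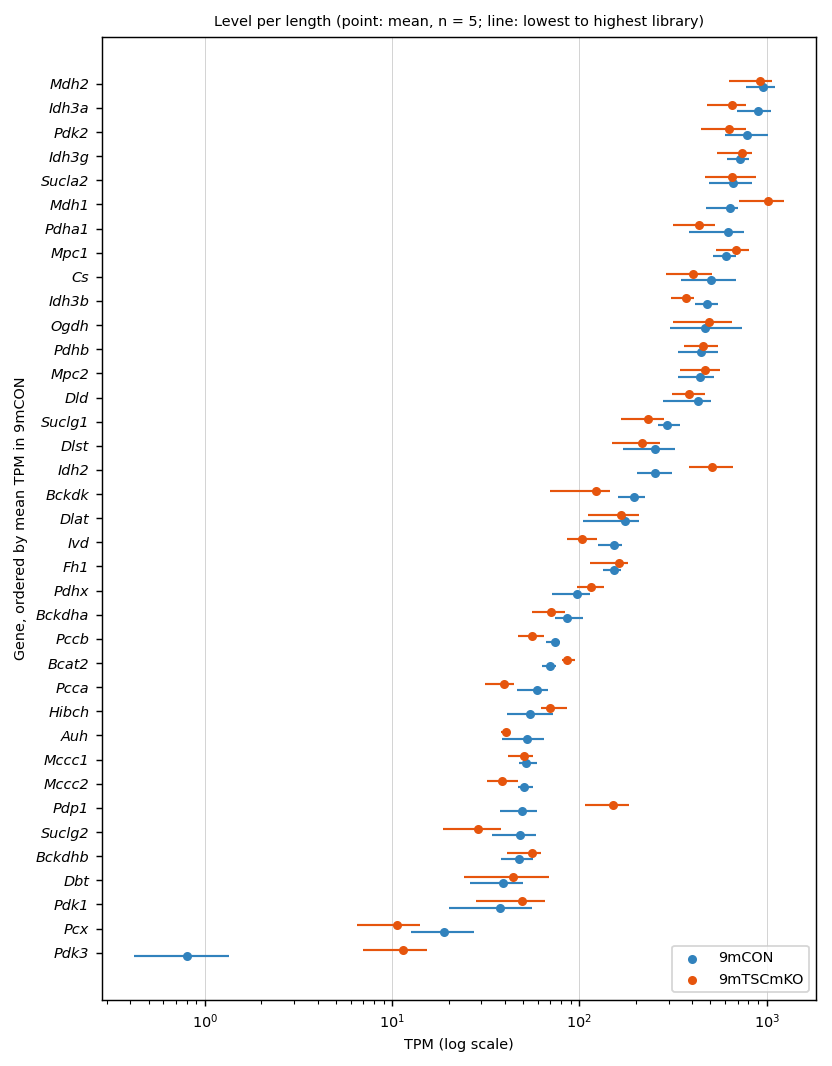
Level of each of the 37 genes in TPM (log scale) in 9mCON (blue) and 9mTSCmKO (orange), with the mean of 5 libraries as a point and the lowest to highest library as a line. Pdk3 moved from the bottom of the range (mean 0.802 TPM) to 11.5 TPM and Pdp1 from 49.5 to 151 TPM.

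Between genotypes at 9 months, the kinase gene Pdk3, the phosphatase gene Pdp1, the NADP-dependent isocitrate dehydrogenase gene Idh2 and the cytosolic malate dehydrogenase gene Mdh1 were higher in 9mTSCmKO than in 9mCON, and 15 members were lower. In all, 19 of 37 members (51.4%) were called at an adjusted p below 0.05, where 37.9% of all 13543 genes were called (2580 higher and 2553 lower). On log2(TPM + 1) with limma 5 were higher and 11 lower, and with only the groups compared in the model 4 were higher and 9 lower. The median log2 fold change was -0.16 over the members and -0.022 over all genes. At 3 months 13 members were called, 4 higher and 9 lower, against 19.8% of all genes (1549 higher and 1127 lower), with medians of -0.17 over the members and -0.024 over all genes. These 2 comparisons share no library. There were 10 members called in both and in the same direction, which are 27% of the members, 52.6% of those called at 9 months and 76.9% of those called at 3 months. Over all genes tested 1853 were, which are 13.7% of the genes, 36.1% of those called at 9 months and 69.2% of those called at 3 months. The 10 members were Cs, Idh2, Idh3a, Suclg2, Pdha1, Pdk3, Pdp1, Bckdha, Pcca and Pccb. With rapamycin in both genotypes, 12 members were called at 9 months (3 higher and 9 lower, against 20.6% of all genes) and 8 at 3 months (2 higher and 6 lower, against 10% of all genes). The balance at 9 months depended on the setting: on TPM values with limma 5 were higher and 4 lower, and with only the groups compared 4 were higher and 4 lower. The count at 9 months was 7 without 9mTSCmKO+RM replicate 4 and 14 without 9mTSCmKO+RM replicate 1. The count at 3 months was 3 without 3mTSCmKO+RM replicate 4, it was 4 without 3mCON+RM replicate 2 or 4 or 3mTSCmKO+RM replicate 3, and it was 5 without 3mCON+RM replicate 1 or 3 or 3mTSCmKO+RM replicate 2 or 5. Without 9mTSCmKO replicate 1 there were 17 members called between genotypes at 9 months, and without 9mTSCmKO replicate 3 there were 20.

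**Figure D2:**
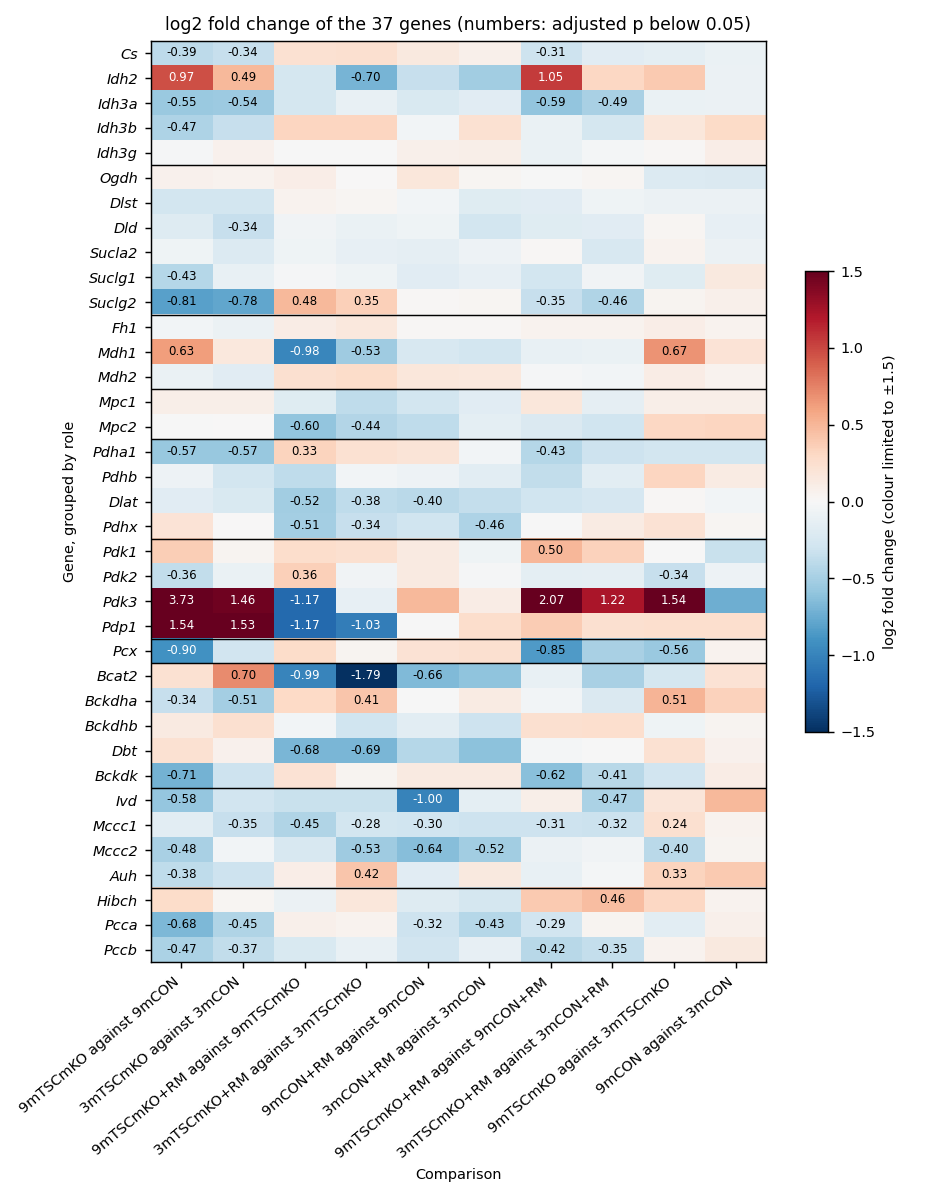
Colour gives the log2 fold change of the 37 genes (ordered and ruled off by role) in the 10 comparisons between 2 groups, limited to 1.5 in either direction, and a number is written where the adjusted p was below 0.05. The genotype columns hold Pdk3 (3.73 at 9 months) and Pdp1 (1.54) as the strongest rises among many modest falls, and the rapamycin columns in TSCmKO hold Bcat2 (-0.99 and -1.79) and Pdp1 (-1.17 and -1.03) as strong falls.

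Markers of fiber type moved with genotype at 9 months. Summed over 8 markers of fast fibers, the level was 171924 to 193222 CPM in 9mCON and 109571 to 128493 CPM in 9mTSCmKO, and 4 of the 8 fell. Summed over 9 markers of slow or oxidative fibers it was 1682 to 2501 CPM in 9mCON and 3688 to 6730 CPM in 9mTSCmKO, and 8 of the 9 rose. Most of this sum was Mb, with means of 1867 CPM in 9mCON and 3147 CPM in 9mTSCmKO. The marker that did not rise was Myh2, with means of 91.1 CPM in 9mCON and 53.7 CPM in 9mTSCmKO. At 3 months 1 fast marker and 1 of 5 tendon markers fell and 2 slow markers rose. At 9 months 3 of 5 fibroblast, 3 of 5 tendon, 2 of 5 endothelial, 2 of 5 Schwann cell and 2 of 7 adipocyte markers were also lower in 9mTSCmKO, and 1 of 5 macrophage markers was higher. With rapamycin in both genotypes, 5 of the 9 slow or oxidative markers were higher in 9mTSCmKO+RM than in 9mCON+RM (median log2 fold change over the 9 of 1.42) and 3 of the 8 fast markers were lower, as were 1 of 5 endothelial and 1 of 7 adipocyte markers, while 1 of 5 macrophage markers was higher. In 3mTSCmKO+RM against 3mCON+RM 2 slow or oxidative markers and 1 tendon marker were higher and 1 adipocyte marker was lower. The part of these cell types in the values of the 37 genes was not tested.

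With rapamycin for 3 days in TSCmKO, more of the members called were lower than higher. All genes called were nearer to an even split. In 9mTSCmKO+RM against 9mTSCmKO 12 members were called, 3 higher and 9 lower, against 32.6% of all genes (2135 higher and 2275 lower). In 3mTSCmKO+RM against 3mTSCmKO 13 were called, 3 higher and 10 lower, against 23.6% of all genes (1435 higher and 1761 lower), and with upper-quartile scaling 4 members were higher and 7 lower. Of all genes called there 44.9% were higher, but 55.7% with upper-quartile scaling and 55.2% on log2(TPM + 1) with limma. At 9 months the share of members called, 32.4%, was thus near that of all genes, and at 3 months it was 35.1%. Without 9mTSCmKO+RM replicate 1 the count at 9 months was 14, and without 9mTSCmKO replicate 1 or 3 it was 12. The medians over the members were -0.054 and -0.066, and those over all genes -0.045 and 0.0099. There were 9 members called in the same direction at both ages, which share no library. They are 24.3% of the members, 75% of those called at 9 months and 69.2% of those called at 3 months, where over all genes tested 1911 were, 14.1% of the genes, 43.3% of those called at 9 months and 59.8% of those called at 3 months. Among the 9, Suclg2 rose, and Mdh1, Mpc2, Dlat, Pdhx, Pdp1, Bcat2, Dbt and Mccc1 fell. With rapamycin in TSCmKO, 4 of 8 fast-fiber markers rose and 1 fell at each age. Of 9 slow or oxidative markers 1 rose and 3 fell at 9 months, with a sum of 2992 to 3560 CPM in 9mTSCmKO+RM, and 1 rose and 1 fell at 3 months. The marker that rose at 9 months was Myh2, from a mean of 53.7 CPM in 9mTSCmKO to 180 CPM in 9mTSCmKO+RM. In 3mTSCmKO+RM 2 of 5 macrophage markers, 1 of 5 fibroblast and 1 of 5 tendon markers rose and 1 of 7 adipocyte markers fell. In 9mTSCmKO+RM 1 of 5 endothelial markers rose and 1 fell, and 1 of 5 Schwann markers fell. The part of these cells and fiber types in the values was not tested. The comparison of 9mTSCmKO+RM against 9mTSCmKO shares its vehicle libraries with the genotype comparison at 9 months, and likewise at 3 months, so opposite signs in the 2 comparisons are not separate pieces of information.

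In CON, 6 members fell with rapamycin at 9 months and 0 rose, against 11.8% of all genes called (681 higher and 923 lower), and 3 fell at 3 months and 0 rose, against 0.679% of all genes (49 higher and 43 lower). The 92 genes called at 3 months became 35 to 70 without 1 library. The 6 were Dlat, Bcat2, Ivd, Mccc1, Mccc2 and Pcca. The count was 3 without 9mCON replicate 2 or 4 or 9mCON+RM replicate 3. In the same comparison 5 of 5 fibroblast markers, 4 of 5 tendon and 4 of 5 macrophage markers fell, the fibroblast sum being 790.1 to 1522 CPM in 9mCON and 121 to 577 CPM in 9mCON+RM, and 1 of 5 Schwann cell markers fell. The fast-fiber sum was 171924 to 193222 CPM in 9mCON and 212491 to 231410 CPM in 9mCON+RM, without overlap, and 1 of its 8 markers rose. The part of these cells and fiber types was not tested. The 3 at 3 months were Pdhx, Mccc2 and Pcca, and the call of each depended on single libraries: the count was 0 without 3mCON replicate 2 or 3mCON+RM replicate 1 or 4, and 1 without 3mCON replicate 1, 4 or 5 or 3mCON+RM replicate 5. The comparison of 9mCON+RM against 9mCON shares its vehicle libraries with the genotype comparison at 9 months, and likewise at 3 months. Equal signs in the 2 comparisons are therefore not separate pieces of information.

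Between ages, 8 members differed in TSCmKO (9mTSCmKO against 3mTSCmKO, 5 higher and 3 lower, against 37.4% of all genes, or 5 higher and 6 lower on TPM values with limma) and 0 in CON (against 1.02% of all genes, with 138 genes called by edgeR). In CON, DESeq2 called 1 member, and 17.6% of all genes had an unadjusted p under 0.05. The 138 genes called in CON became 30 without 9mCON replicate 2 and 942 without 9mCON replicate 5. Only Pdk3 and Bckdha, a subunit of BCKDH, remained called in TSCmKO when insert size was a term of the model. With only the groups compared Pdk2, Mccc1 and Auh were lost, Mccc1 and Auh also with no filter, and Auh also with limma. The count in TSCmKO was 5 without 3mTSCmKO replicate 3 or 9mTSCmKO replicate 3, and in CON it was 2 without 9mCON replicate 5. Markers moved with age in TSCmKO too. Of the slow or oxidative markers 6 of 9 were higher and 1 lower in 9mTSCmKO than in 3mTSCmKO, and 3 of 8 fast markers were lower. Lower as well were 5 of 7 adipocyte, 3 of 5 endothelial, 3 of 5 fibroblast, 3 of 5 tendon, 3 of 4 erythroid and 1 of 5 macrophage markers, while 1 tendon, 1 macrophage and 1 Schwann cell marker were higher. The erythroid sum was 6306 CPM in 3mTSCmKO replicate 3 and 321 to 647 CPM in the other libraries of 3mTSCmKO. In CON 1 of 5 tendon markers was lower at 9 months. The part of these cells and fiber types was not tested.

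The 3 interactions tested whether an effect differed between groups. The genotype effect differed between ages for 1 member, Pdk3 (against 4.94% of all genes), and without 9mCON replicate 1 for 2 members. The effect of rapamycin differed between genotypes at 9 months for 4 members, Mdh1, Pdk3, Pdp1 and Ivd (against 4.87% of all genes), and at 3 months for 3 members, Pdp1, Bcat2 and Pcca (against 3.45% of all genes). The count at 9 months was 2 without 9mCON replicate 3, 4 or 5, 9mCON+RM replicate 1, 2 or 5, 9mTSCmKO replicate 3 or 9mTSCmKO+RM replicate 2 or 3. With upper-quartile scaling the members called at 9 months went from 1 higher and 3 lower to 3 higher and 3 lower. The genotype effect differed between ages also for markers, with 4 of 9 slow or oxidative markers higher (median log2 difference over the 9 of 2.11), 2 of 8 fast markers lower and 2 of 4 erythroid markers lower. The erythroid sum stood apart in single libraries, at 6306 CPM in 3mTSCmKO replicate 3 and 4974 CPM in 9mCON replicate 1. The other libraries of 3mTSCmKO had 321 to 647 CPM and those of 9mCON 246 to 909 CPM. The effect of rapamycin differed between genotypes for 1 fast marker at 9 months and 1 tendon marker at 3 months, both higher. The part of these cells and fiber types was not tested. Each of the 13 comparisons had 37 members tested, and for the rest the difference between effects did not pass the threshold. The plot of the libraries shows 6 of the genes on which these results turn.

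Some calls of members ended under settings other than the leaving out of a library. Between genotypes at 9 months, those of Cs, Idh3b, Suclg1, Pdk2, Bckdha and Auh ended with only the groups compared in the model, and those of Cs, Pdk2, Bckdha and Auh on log2 TPM values with limma. At 3 months Cs and Dld were lost with no filter on low counts. Between the treated groups at 9 months, Cs, Suclg2, Mccc1, Pcca and Pccb were lost with only the groups compared, Cs, Suclg2, Pdha1, Mccc1 and Pcca with limma, Cs, Mccc1 and Pcca with insert size as a term and Cs with no filter. At 3 months the treated groups lost Bckdk, Mccc1, Hibch and Pccb with no filter, Suclg2, Bckdk and Mccc1 with limma, Ivd with only the groups compared and Hibch with insert size.

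For rapamycin in TSCmKO, the calls of Pdha1 and Pdk2 at 9 months ended with only the groups compared, and that of Pdha1 also with no filter. At 3 months Suclg2, Mpc2, Dlat, Mccc1 and Auh were lost with limma, Mpc2, Dlat and Mccc1 with upper-quartile scaling, and Dlat and Mccc1 with no filter. In CON at 9 months Dlat, Mccc1 and Pcca were lost both with only the groups compared and with no filter, and Dlat also with limma and with insert size, and at 3 months all 3 calls were lost with no filter. Of the differences in response, those of Mdh1 and Ivd at 9 months ended with only the groups compared and with no filter, that of Mdh1 also with insert size, and that of Pcca at 3 months with no filter. Limma without a filter further ended the calls of Dld between genotypes at 3 months, of Pdhx in 3mTSCmKO+RM, of Pcca in 3mCON+RM, of Pdk1 and Ivd between the treated groups at 9 and 3 months respectively, and of the difference in response of Pcca.

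**Figure D3:**
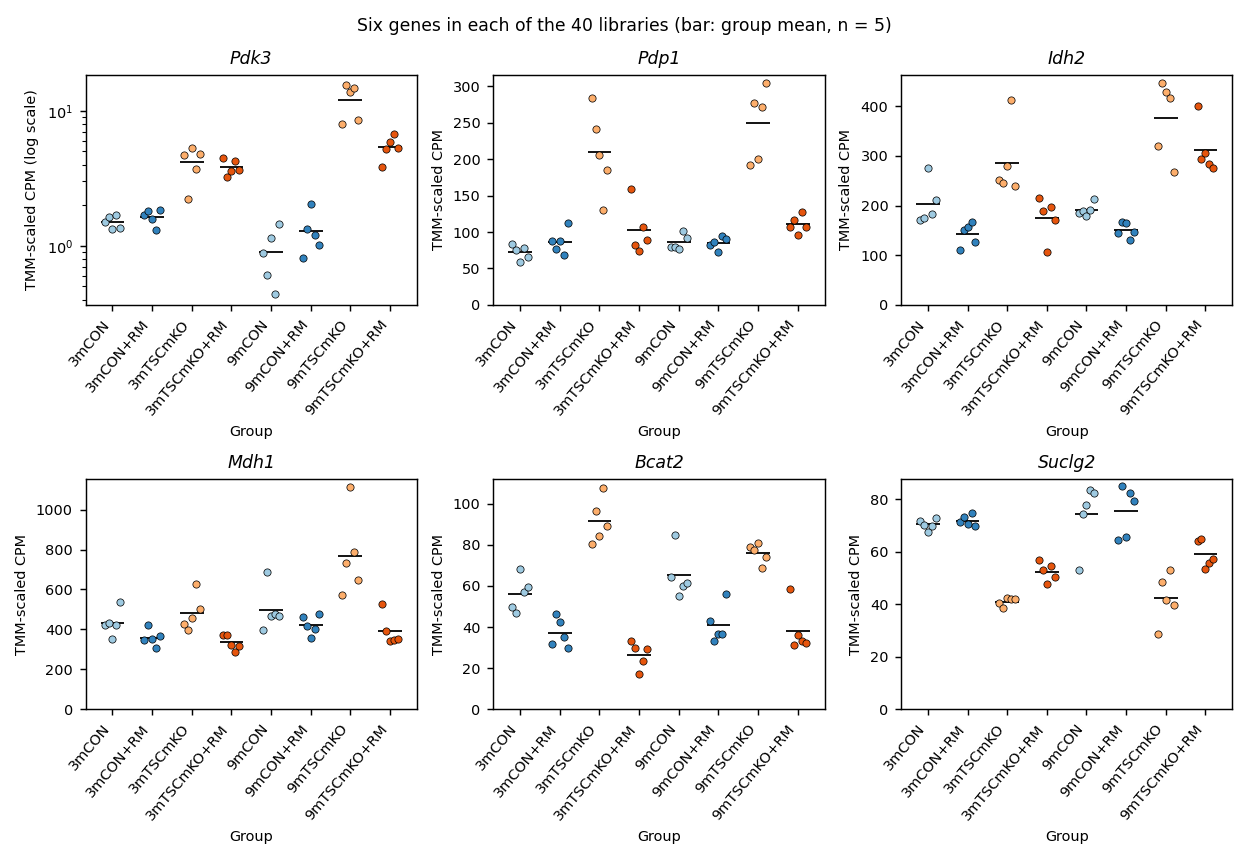
TMM-scaled CPM of Pdk3, Pdp1, Idh2, Mdh1, Bcat2 and Suclg2 in each of the 40 libraries by group, with a point for each library and a bar for the mean of 5. The axis of Pdk3 is logarithmic and the others start at 0. Pdk3 sat at 8.01 to 15.5 CPM in 9mTSCmKO against 0.437 to 1.45 CPM in 9mCON.

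Among the enzymes from citrate to 2-oxoglutarate, Idh2 stood against its neighbours in direction. Idh2 (chr7:80094846-80115392, minus strand) encodes the mitochondrial isocitrate dehydrogenase that makes NADPH. At 9 months it was at 184, 189.9, 179, 191 and 214 CPM (TMM-scaled, replicates 1 to 5) in 9mCON and at 319, 447, 428, 416 and 268 CPM in 9mTSCmKO. Every 9mTSCmKO library was above every 9mCON library (log2 fold change 0.97 ± 0.17, adjusted p = 1.2e-05; the value after ± is the SE). With rapamycin Idh2 was at 144, 167, 165, 130.3 and 146 CPM in 9mCON+RM and at 401, 294, 306, 284 and 276 CPM in 9mTSCmKO+RM, again without overlap (log2 fold change 1.05 ± 0.17, adjusted p = 7.02e-06). The change with rapamycin in 9mTSCmKO did not pass the threshold (-0.27 ± 0.16, adjusted p = 0.217).

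At 3 months Idh2 was at 171, 175, 277, 183 and 211 CPM in 3mCON and at 252, 246, 279, 412 and 239.6 CPM in 3mTSCmKO. The groups overlapped and the fitted rise was smaller (log2 fold change 0.49 ± 0.16, adjusted p = 0.0299). The difference in the genotype effect between ages did not pass the threshold. The call at 3 months was lost without 3mCON replicate 1, 2 or 4 or 3mTSCmKO replicate 4 (adjusted p = 0.146 without the last) and on log2 TPM values with limma. Rapamycin-treated libraries had Idh2 at 109.7, 151, 157, 167 and 126 CPM in 3mCON+RM and at 214, 189.6, 108, 196 and 170.3 CPM in 3mTSCmKO+RM, and it fell below every 3mTSCmKO library (log2 fold change -0.70 ± 0.17, adjusted p = 0.00142). In CON the change with rapamycin was -0.35 ± 0.16, adjusted p = 0.181 at 9 months and -0.52 ± 0.17, adjusted p = 0.173 at 3 months, neither past the threshold, although the groups did not overlap at either age.

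The NAD-dependent enzyme and citrate synthase went the other way. Idh3a fell from 1085 ± 187 CPM in 9mCON to 740.2 ± 117 CPM in 9mTSCmKO (log2 fold change -0.55 ± 0.12, adjusted p = 0.000253) and from 1158 ± 153 to 793 ± 81.7 CPM at 3 months (log2 fold change -0.54 ± 0.12, adjusted p = 0.000598). It was lower in TSCmKO also with rapamycin in both genotypes, at 9 months (-0.59 ± 0.12, adjusted p = 0.000209) and likewise in the 3-month groups (-0.49 ± 0.12, adjusted p = 0.00426). Its partner subunit Idh3b fell at 9 months (-0.47 ± 0.15, adjusted p = 0.0138), but not past the threshold without 9mCON replicate 2 (adjusted p = 0.0825) or at 3 months (-0.35 ± 0.15, adjusted p = 0.101). Idh3g, the other regulatory subunit, was at 449.6 ± 39.0 and 445 ± 61.9 CPM at 9 months (-0.014 ± 0.11, adjusted p = 0.933). Cs, which makes citrate and is a common marker of mitochondrial content, fell at 9 months (-0.39 ± 0.11, adjusted p = 0.00704) and likewise in the 3-month groups (-0.34 ± 0.11, adjusted p = 0.0307). The call of Cs at 9 months was lost without 9mCON replicate 5 (adjusted p = 0.0589), and that at 3 months without any library other than 3mCON replicate 3 or 3mTSCmKO replicate 2 or 5.

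From 2-oxoglutarate to succinate, the strongest change was in Suclg2 (chr6:95473009-95718800, minus strand), the GTP-specific subunit of succinyl-CoA ligase. At 3 months it was at 72.0, 70.2, 67.4, 70.1 and 72.8 CPM in 3mCON and at 40.3, 38.7, 42.2, 41.8 and 42.1 CPM in 3mTSCmKO. All 3mTSCmKO libraries were lower and within a narrow range (log2 fold change -0.78 ± 0.11, adjusted p = 1.73e-06). In the treated groups, Suclg2 was at 71.5, 73.4, 70.5, 74.7 and 69.7 CPM in 3mCON+RM and at 56.8, 53.0, 47.6, 54.5 and 50.4 CPM in 3mTSCmKO+RM. It rose in TSCmKO with rapamycin (log2 fold change 0.35 ± 0.11, adjusted p = 0.0188) without overlap, and stayed below 3mCON+RM (log2 fold change -0.46 ± 0.11, adjusted p = 0.00565). On log2 TPM values with limma neither of these last 2 calls was made.

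At 9 months Suclg2 was at 53.0, 74.3, 78.0, 83.7 and 82.3 CPM in 9mCON and at 28.8, 48.4, 41.6, 53.3 and 39.7 CPM in 9mTSCmKO. The lowest 9mCON library lay within the TSCmKO range, and the fall was of the size seen at 3 months (log2 fold change -0.81 ± 0.11, adjusted p = 3.56e-07). Under rapamycin Suclg2 was at 64.7, 85.0, 65.8, 82.4 and 79.2 CPM in 9mCON+RM and at 64.2, 64.8, 53.5, 55.9 and 57.3 CPM in 9mTSCmKO+RM. Every treated TSCmKO library was above every untreated one (log2 fold change 0.48 ± 0.11, adjusted p = 0.00111). The difference left between the treated groups (-0.35 ± 0.11, adjusted p = 0.0220) was lost without 9mCON+RM replicate 2, 4 or 5 or 9mTSCmKO+RM replicate 3 or 4. In CON its change with rapamycin was 0.023 ± 0.11, adjusted p = 0.932 at 9 months and 0.030 ± 0.11, adjusted p = 0.989 at 3 months, and the difference in response between genotypes was not past the threshold (0.46 ± 0.16, adjusted p = 0.0823 at 9 months).

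The ATP-specific partner Sucla2, at 663 ± 151 TPM in 9mCON against 47.9 ± 10.9 TPM for Suclg2, was not called in any of the 13 comparisons (-0.059 ± 0.13, adjusted p = 0.748 at 9 months and -0.20 ± 0.13, adjusted p = 0.289 at 3 months between genotypes). Suclg1, the subunit common to both ligases, fell at 9 months (-0.43 ± 0.11, adjusted p = 0.00201, and an adjusted p of 0.0596 with only the groups compared) and had -0.11 ± 0.11, adjusted p = 0.550 at 3 months. Dld, the dihydrolipoamide dehydrogenase that the 2-oxoglutarate, pyruvate and branched-chain complexes have in common, fell at 3 months (-0.34 ± 0.12, adjusted p = 0.0340) and had -0.19 ± 0.12, adjusted p = 0.201 at 9 months. The call of Dld was lost without any library other than 3mCON replicate 3 or 3mTSCmKO replicate 1 or 3. Ogdh and Dlst, the other subunits of the 2-oxoglutarate dehydrogenase complex, were not called in any comparison. Ogdh was at 982 ± 267 CPM in 9mCON and 1024 ± 229 CPM in 9mTSCmKO, and Dlst at 278 ± 47.0 and 231 ± 39.3 CPM.

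Of the enzymes from fumarate to oxaloacetate, the cytosolic one changed. Mdh1 (chr11:21556787-21572367, minus strand) encodes the malate dehydrogenase of the malate-aspartate shuttle, which moves reducing equivalents into mitochondria. At 9 months it was at 396, 687, 465, 477 and 469 CPM in 9mCON and at 571, 733, 1113, 785 and 647 CPM in 9mTSCmKO. The groups overlapped through 9mCON replicate 2, which was high, and the rise passed the threshold (log2 fold change 0.63 ± 0.16, adjusted p = 0.00151). With rapamycin Mdh1 was at 461, 417, 357, 402 and 478 CPM in 9mCON+RM and at 528, 389.6, 340.1, 346 and 351 CPM in 9mTSCmKO+RM. Every treated TSCmKO library was below every untreated one (log2 fold change -0.98 ± 0.16, adjusted p = 7.11e-06), and the treated groups did not differ past the threshold (-0.11 ± 0.16, adjusted p = 0.673).

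At 3 months Mdh1 was at 422, 431, 353, 421 and 538 CPM in 3mCON and at 428, 395, 459, 629 and 499.9 CPM in 3mTSCmKO, which overlapped (log2 fold change 0.16 ± 0.16, adjusted p = 0.532). Rapamycin-treated libraries had Mdh1 at 347, 422, 349.8, 305 and 369 CPM in 3mCON+RM and at 373, 369.8, 321, 289 and 318 CPM in 3mTSCmKO+RM. It fell in TSCmKO (log2 fold change -0.53 ± 0.16, adjusted p = 0.0105), though not past the threshold without 3mTSCmKO replicate 4 (adjusted p = 0.0556). In CON its change with rapamycin was -0.24 ± 0.16, adjusted p = 0.370 at 9 months. The difference in response between genotypes at 9 months was -0.74 ± 0.22 on the log2 scale (adjusted p = 0.0409). That call was lost when any of 13 of the 20 libraries was left out and was kept without 9mCON replicate 2, 9mCON+RM replicate 3 or 4, 9mTSCmKO replicate 1, 2 or 5 or 9mTSCmKO+RM replicate 1. The highest adjusted p was 0.0964, without 9mTSCmKO replicate 3. Mdh1 was also higher in 9mTSCmKO than in 3mTSCmKO (0.67 ± 0.16, adjusted p = 0.000902), a call lost with insert size as a term. Mdh2 and Fh1, the fumarase, were not called in any comparison, with -0.10 ± 0.13, adjusted p = 0.573 and -0.044 ± 0.10, adjusted p = 0.771 between genotypes at 9 months.

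The mitochondrial pyruvate carrier is built from Mpc1 and Mpc2. Neither differed between genotypes past the threshold, and Mpc2 fell with rapamycin in TSCmKO. Mpc2 (chr1:165460637-165481214, plus strand) was at 219.7, 311, 219, 259 and 162 CPM in 9mCON and at 184, 193, 265, 268 and 256 CPM in 9mTSCmKO, with nearly the same mean (log2 fold change -0.0055 ± 0.15, adjusted p = 0.982). In the treated groups, Mpc2 was at 221, 179.7, 154, 165 and 179.6 CPM in 9mCON+RM and at 187, 158, 109, 153 and 163 CPM in 9mTSCmKO+RM. The fall in 9mTSCmKO passed the threshold (log2 fold change -0.60 ± 0.15, adjusted p = 0.00236) although the highest treated library overlapped the lowest untreated one. In CON the change was -0.38 ± 0.15, adjusted p = 0.0973, and the difference between these responses was -0.22 ± 0.21, adjusted p = 0.606.

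At 3 months Mpc2 was at 169, 175, 191, 199 and 203 CPM in 3mCON and at 154, 143, 176, 264 and 199.9 CPM in 3mTSCmKO. Under rapamycin Mpc2 was at 175, 196, 168, 152 and 158 CPM in 3mCON+RM and at 155, 145, 131, 129 and 132 CPM in 3mTSCmKO+RM. The fall in 3mTSCmKO (log2 fold change -0.44 ± 0.15, adjusted p = 0.0312) was lost without 3mTSCmKO replicate 4 or 5 or 3mTSCmKO+RM replicate 3, 4 or 5, and had an adjusted p of 0.183 without the first. Mpc1 had -0.19 ± 0.15, adjusted p = 0.365 at 9 months and -0.38 ± 0.15, adjusted p = 0.0701 at 3 months with rapamycin in TSCmKO, and was not called in any comparison.

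Among the catalytic subunits of pyruvate dehydrogenase, the E1 alpha subunit Pdha1 (chrX:160122209-160138413, minus strand), which carries the regulatory phosphorylation sites, was lower in TSCmKO. In the 3-month vehicle groups it was at 1076, 1155, 997, 1059 and 1006 CPM in 3mCON and at 727, 576, 752, 765 and 753 CPM in 3mTSCmKO. No 3mTSCmKO library reached the lowest 3mCON library (log2 fold change -0.57 ± 0.12, adjusted p = 0.000704). With rapamycin Pdha1 was at 1047, 1085, 1016, 970.5 and 1044 CPM in 3mCON+RM and at 913, 777, 874, 803 and 809 CPM in 3mTSCmKO+RM. The treated libraries of 3mTSCmKO lay above the untreated ones, but the change did not pass the threshold (0.23 ± 0.12, adjusted p = 0.191), nor did the difference between the treated groups (-0.31 ± 0.12, adjusted p = 0.117).

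At 9 months Pdha1 was at 562, 1032, 894, 972 and 912 CPM in 9mCON and at 447, 666, 577, 663 and 593 CPM in 9mTSCmKO. 9mCON replicate 1 was low and overlapped the TSCmKO libraries, and the fall had the same size as at 3 months (log2 fold change -0.57 ± 0.12, adjusted p = 0.000323). Rapamycin-treated libraries had Pdha1 at 1035, 984, 827, 936 and 1202 CPM in 9mCON+RM and at 828, 839.8, 679, 693 and 673 CPM in 9mTSCmKO+RM. It rose in 9mTSCmKO (log2 fold change 0.33 ± 0.12, adjusted p = 0.0336), a call lost without 9mTSCmKO replicate 1 or 3 or 9mTSCmKO+RM replicate 1 or 2 (adjusted p = 0.168 without the first). It stayed lower than in 9mCON+RM (-0.43 ± 0.12, adjusted p = 0.0102), but not past the threshold without 9mCON+RM replicate 5 (adjusted p = 0.0545) or on log2 TPM values with limma.

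Dlat, Pdhx and Pdhb did not differ between genotypes past the threshold at either age, and the first 2 of them fell with rapamycin. Dlat, the acetyltransferase, went from 214 ± 35.3 CPM in 9mTSCmKO to 149 ± 17.0 CPM in 9mTSCmKO+RM (log2 fold change -0.52 ± 0.13, adjusted p = 0.00248) and fell at 3 months too (-0.38 ± 0.13, adjusted p = 0.0301). It also fell in 9mCON+RM (-0.40 ± 0.13, adjusted p = 0.0409), a call lost without any library other than 9mCON replicate 1 or 9mCON+RM replicate 4 or 5, and had -0.35 ± 0.13, adjusted p = 0.297 in 3mCON+RM. Pdhx, which anchors Dld to that core, fell in 9mTSCmKO+RM (-0.51 ± 0.11, adjusted p = 0.000447), in 3mTSCmKO+RM (-0.34 ± 0.11, adjusted p = 0.0183) and in 3mCON+RM (-0.46 ± 0.11, adjusted p = 0.0316), and had -0.30 ± 0.11, adjusted p = 0.0655 in 9mCON+RM. The fall at 3 months in TSCmKO was lost without 3mTSCmKO replicate 5 or 3mTSCmKO+RM replicate 4 or 5 for Pdhx, and without 3mTSCmKO replicate 3, 4 or 5 or 3mTSCmKO+RM replicate 2, 4 or 5 for Dlat. The fall of Pdhx in 3mCON+RM was lost without any library other than 3mCON replicate 3 or 3mCON+RM replicate 5. Pdhb, the E1 beta subunit, was not called in any comparison (-0.38 ± 0.16, adjusted p = 0.0603 with rapamycin at 9 months in TSCmKO).

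The kinases and phosphatase of pyruvate dehydrogenase held the strongest genotype differences of the 37 genes. Pdk3 (chrX:93764607-93832201, minus strand) encodes a kinase isoform that is low in normal skeletal muscle and that inhibits the complex. At 9 months it was at 0.886, 0.604, 1.14, 0.437 and 1.45 CPM in 9mCON and at 8.01, 15.5, 13.7, 14.8 and 8.57 CPM in 9mTSCmKO. The lowest 9mTSCmKO library was several times the highest 9mCON library (log2 fold change 3.73 ± 0.26, adjusted p = 2.18e-14, a 13.3-fold rise). In the treated groups, Pdk3 was at 0.811, 1.34, 2.03, 1.203 and 1.01 CPM in 9mCON+RM and at 3.83, 5.19, 5.87, 6.69 and 5.31 CPM in 9mTSCmKO+RM. It fell in 9mTSCmKO with rapamycin (log2 fold change -1.17 ± 0.22, adjusted p = 6.57e-05) and stayed above every 9mCON+RM library (log2 fold change 2.07 ± 0.25, adjusted p = 5.53e-08). In CON the change was in the other direction and not past the threshold (0.49 ± 0.29, adjusted p = 0.307), and the responses of the genotypes differed (-1.66 ± 0.36, adjusted p = 0.00525).

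At 3 months Pdk3 was at 1.51, 1.64, 1.32, 1.70 and 1.35 CPM in 3mCON and at 4.74, 2.22, 5.35, 3.71 and 4.75 CPM in 3mTSCmKO, without overlap (log2 fold change 1.46 ± 0.24, adjusted p = 1.53e-05). Under rapamycin Pdk3 was at 1.70, 1.80, 1.57, 1.31 and 1.84 CPM in 3mCON+RM and at 4.45, 3.23, 3.56, 4.24 and 3.62 CPM in 3mTSCmKO+RM. The treated TSCmKO libraries remained above those of 3mCON+RM (log2 fold change 1.22 ± 0.24, adjusted p = 0.000509), and no fall with rapamycin passed the threshold (-0.12 ± 0.22, adjusted p = 0.744). The genotype effect was larger at 9 than at 3 months by 2.27 ± 0.35 on the log2 scale (adjusted p = 7.41e-05). Within TSCmKO it was higher at 9 months (1.54 ± 0.22, adjusted p = 1.41e-06), and in CON it had -0.73 ± 0.28, adjusted p = 0.163. Those calls held without any single library and in each alternative, with a fold change at 9 months between genotypes of 2.77 to 4.02 on the log2 scale.

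Pdp1 (chr4:11958184-11966452, minus strand) encodes the catalytic subunit of the phosphatase that reactivates the complex, and it rose as well. At 9 months it was at 79.8, 79.8, 76.4, 101 and 91.9 CPM in 9mCON and at 192, 277, 201, 272 and 304 CPM in 9mTSCmKO, without overlap (log2 fold change 1.54 ± 0.18, adjusted p = 4.98e-09). At 3 months it was at 83.0, 75.1, 59.4, 78.5 and 65.8 CPM in 3mCON and at 284, 242, 205, 131 and 185 CPM in 3mTSCmKO (log2 fold change 1.53 ± 0.18, adjusted p = 1.6e-08). The size of the rise was nearly equal at both ages (difference 0.0042 ± 0.24, adjusted p = 0.997). With rapamycin Pdp1 was at 81.8, 87.0, 72.8, 94.9 and 90.2 CPM in 9mCON+RM and at 108, 116, 96.6, 127 and 107 CPM in 9mTSCmKO+RM. At 3 months the treated values were 87.7, 77.0, 87.4, 68.8 and 113 CPM in 3mCON+RM and 159, 82.9, 73.7, 107 and 89.1 CPM in 3mTSCmKO+RM. Pdp1 fell in TSCmKO at 9 months (log2 fold change -1.17 ± 0.17, adjusted p = 2.07e-06) and likewise in the 3-month groups (log2 fold change -1.03 ± 0.17, adjusted p = 1.95e-05), while in CON it had -0.0092 ± 0.17, adjusted p = 0.980 and 0.26 ± 0.17, adjusted p = 0.743. The responses of the genotypes differed at 9 months (-1.16 ± 0.24, adjusted p = 0.00414) and likewise in the 3-month groups (-1.29 ± 0.24, adjusted p = 0.00122), also without any single library. With rapamycin the genotypes no longer differed past the threshold (0.38 ± 0.17, adjusted p = 0.123 at 9 months and 0.24 ± 0.17, adjusted p = 0.479 at 3 months), although at 9 months every 9mTSCmKO+RM library (96.6 to 127 CPM) was above every 9mCON+RM library (72.8 to 94.9 CPM).

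Pdk3 remained a small share of the kinase transcripts. Summed over Pdk1, Pdk2, Pdk3 and Pdk4, the kinase transcripts came to 1620 ± 482 TPM in 9mCON and 1735 ± 433 TPM in 9mTSCmKO. Pdk3 took 0.0268% to 0.0726% of this sum in the 9mCON libraries and 0.483% to 0.842% in the 9mTSCmKO libraries, and 0.194% to 0.356% in 9mTSCmKO+RM. Pdk2, a main isoform of muscle, fell at 9 months (-0.36 ± 0.12, adjusted p = 0.0195) and rose with rapamycin there (0.36 ± 0.12, adjusted p = 0.0257). The former call was lost without 9mCON replicate 5 or 9mTSCmKO replicate 1, and the latter without 9mTSCmKO replicate 1, 3 or 4 or 9mTSCmKO+RM replicate 1. Pdk2 had -0.10 ± 0.12, adjusted p = 0.624 between genotypes at 3 months. Pdk1, an isoform that responds to low oxygen, was higher in 9mTSCmKO+RM than in 9mCON+RM (0.50 ± 0.16, adjusted p = 0.0193), a call lost without 9mCON+RM replicate 1 or 9mTSCmKO+RM replicate 4, and it had 0.37 ± 0.16, adjusted p = 0.0609 between the vehicle groups. Pdk4, an isoform induced by fasting and not a member of the 37, varied strongly between libraries and differed only in 3mTSCmKO+RM against 3mTSCmKO (-1.01 ± 0.38, adjusted p = 0.0486), a call lost without any library other than 3mTSCmKO replicate 2 or 3mTSCmKO+RM replicate 2 or 3. The call of Pdk4 was also lost with upper-quartile scaling, with no filter and with only the groups compared (adjusted p = 0.217 with the last).

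**Figure D4:**
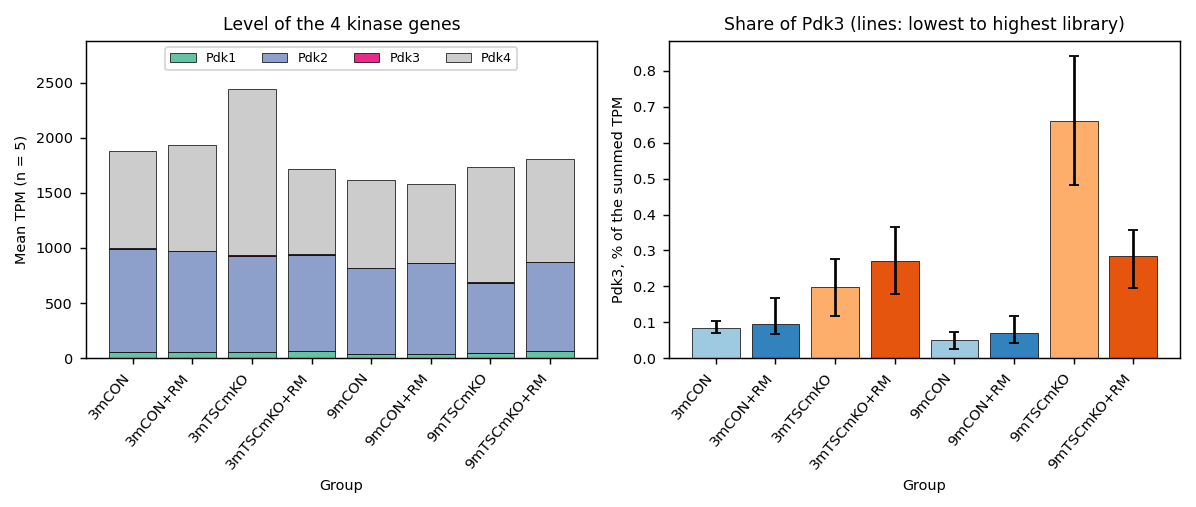
Left: mean TPM of Pdk1, Pdk2, Pdk3 and Pdk4 stacked by group (n = 5), where Pdk2 and Pdk4 make up nearly the whole bar. Right: Pdk3 as a percentage of the summed TPM of the 4 kinase genes by group, with the mean as a bar and the lowest to highest library as a line, where 9mTSCmKO reached a mean of 0.661% against 0.0499% in 9mCON.

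Pcx (chr19:4510472-4621752, plus strand) encodes pyruvate carboxylase, which makes oxaloacetate from pyruvate. At 9 months it was at 28.2, 44.1, 42.1, 44.5 and 56.9 CPM in 9mCON and at 14.4, 28.7, 21.5, 25.9 and 24.9 CPM in 9mTSCmKO. The groups touched only through 9mCON replicate 1 and 9mTSCmKO replicate 2 (log2 fold change -0.90 ± 0.17, adjusted p = 4.12e-05). Rapamycin-treated libraries had Pcx at 47.6, 45.0, 43.3, 58.9 and 57.0 CPM in 9mCON+RM and at 30.0, 31.4, 29.3, 27.3 and 21.5 CPM in 9mTSCmKO+RM, without overlap (log2 fold change -0.85 ± 0.17, adjusted p = 0.000183). In the 3-month vehicle groups it was at 40.03, 42.8, 49.8, 36.1 and 38.9 CPM in 3mCON and at 36.8, 33.6, 26.9, 39.6 and 32.7 CPM in 3mTSCmKO, which overlapped (log2 fold change -0.29 ± 0.17, adjusted p = 0.231). With rapamycin the values were 43.2, 46.1, 46.8, 54.2 and 53.8 CPM in 3mCON+RM and 31.02, 29.5, 28.7, 32.2 and 53.5 CPM in 3mTSCmKO+RM (-0.48 ± 0.17, adjusted p = 0.0540), where 3mTSCmKO+RM replicate 5 was high. The change with rapamycin in TSCmKO did not pass the threshold at either age (0.27 ± 0.17, adjusted p = 0.213 and 0.041 ± 0.16, adjusted p = 0.893), and the difference in the genotype effect between ages was -0.61 ± 0.23, adjusted p = 0.125. Pcx was lower in 9mTSCmKO than in 3mTSCmKO (-0.56 ± 0.17, adjusted p = 0.00818), a call lost with insert size as a term.

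In branched-chain catabolism, the first enzyme had the largest fold change with rapamycin of the 37 genes in TSCmKO at 3 months, while at 9 months Pdp1 and Pdk3 fell by more. Bcat2 (chr7:45570153-45589711, plus strand) encodes the mitochondrial aminotransferase that starts the breakdown of leucine, isoleucine and valine. At 3 months it was at 49.8, 46.6, 68.1, 56.9 and 59.3 CPM in 3mCON and at 80.2, 96.5, 84.5, 108 and 89.2 CPM in 3mTSCmKO, all higher (log2 fold change 0.70 ± 0.16, adjusted p = 0.00153). In the treated groups, Bcat2 was at 31.9, 46.4, 42.6, 35.2 and 29.6 CPM in 3mCON+RM and at 33.4, 29.6, 16.9, 23.3 and 29.5 CPM in 3mTSCmKO+RM. The fall in 3mTSCmKO (log2 fold change -1.79 ± 0.17, adjusted p = 2.9e-10) took every library below every 3mCON library. In 3mCON the difference did not pass the threshold (-0.60 ± 0.17, adjusted p = 0.0799), although those groups did not overlap either. The responses differed between genotypes (-1.19 ± 0.23, adjusted p = 0.00205), also without any single library.

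At 9 months Bcat2 was at 64.4, 84.7, 55.2, 59.8 and 61.7 CPM in 9mCON and at 79.2, 77.6, 80.8, 68.9 and 74.2 CPM in 9mTSCmKO, where 9mCON replicate 2 was the highest of all (log2 fold change 0.22 ± 0.16, adjusted p = 0.286). Under rapamycin Bcat2 was at 43.2, 33.2, 36.8, 36.8 and 56.0 CPM in 9mCON+RM and at 58.6, 31.4, 36.1, 32.9 and 32.4 CPM in 9mTSCmKO+RM. It fell in 9mTSCmKO (log2 fold change -0.99 ± 0.17, adjusted p = 1.45e-05) and in 9mCON (log2 fold change -0.66 ± 0.17, adjusted p = 0.00641), and the difference between those responses did not pass the threshold (-0.33 ± 0.23, adjusted p = 0.445). The treated groups did not differ past the threshold at 9 months (-0.11 ± 0.17, adjusted p = 0.720) or at 3 months (-0.48 ± 0.17, adjusted p = 0.0598).

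The subunits of BCKDH moved in different directions. Bckdha, the E1 alpha subunit, fell from 71.9 ± 2.81 to 50.5 ± 5.004 CPM at 3 months (log2 fold change -0.51 ± 0.12, adjusted p = 0.00245) and rose there with rapamycin (0.41 ± 0.12, adjusted p = 0.0123), the latter not past the threshold without 3mTSCmKO+RM replicate 1 (adjusted p = 0.0627). Its fall at 9 months (-0.34 ± 0.12, adjusted p = 0.0270) was lost without 9mCON replicate 2, 4 or 5 or 9mTSCmKO replicate 1 or 5. Bckdhb, the E1 beta subunit, was not called in any comparison (0.13 ± 0.12, adjusted p = 0.397 between genotypes at 9 months). Dbt, the acyltransferase core, did not differ between genotypes past the threshold (0.22 ± 0.17, adjusted p = 0.319 at 9 months) and fell with rapamycin in TSCmKO by nearly the same amount at 9 months (-0.68 ± 0.17, adjusted p = 0.00259) and 3 months (-0.69 ± 0.17, adjusted p = 0.00308). In CON the change of Dbt was -0.43 ± 0.17, adjusted p = 0.110 and -0.62 ± 0.18, adjusted p = 0.0905, and the differences between genotypes in this response were -0.25 ± 0.25, adjusted p = 0.599 and -0.066 ± 0.25, adjusted p = 0.955.

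Bckdk, the kinase that inactivates BCKDH, was lower in 9mTSCmKO. It was at 212 ± 23.3 CPM in 9mCON and at 129.7 ± 26.4 CPM in 9mTSCmKO (log2 fold change -0.71 ± 0.13, adjusted p = 1.96e-05), and at 232 ± 27.4 and 151 ± 23.9 CPM with rapamycin (log2 fold change -0.62 ± 0.13, adjusted p = 0.000250). Both calls held without any single library. At 3 months it had -0.31 ± 0.12, adjusted p = 0.0762 in the vehicle groups and -0.41 ± 0.12, adjusted p = 0.0276 in the treated groups, the latter lost without 3mCON+RM replicate 2 or 3mTSCmKO+RM replicate 3, 4 or 5. Of the 31-base stretches of Bckdk transcripts, 3.62% are found in at least 1 further gene's transcripts, and this share was at most 4.55% for each of the 37 genes, in Bckdhb.

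In the leucine arm, Ivd (chr2:118861954-118882909, plus strand), the isovaleryl-CoA dehydrogenase, was highest in 9mCON. It was at 149.8, 194, 175, 170.5 and 167 CPM in 9mCON and at 108, 123, 107, 131 and 102 CPM in 9mTSCmKO, without overlap (log2 fold change -0.58 ± 0.14, adjusted p = 0.00126). With rapamycin Ivd was at 92.1, 77.8, 72.4, 94.8 and 91.3 CPM in 9mCON+RM and at 117, 91.6, 82.4, 82.3 and 80.3 CPM in 9mTSCmKO+RM. All treated CON libraries were well below all untreated ones (log2 fold change -0.9997 ± 0.14, adjusted p = 1.34e-05), while the change in TSCmKO was smaller and not past the threshold (-0.33 ± 0.14, adjusted p = 0.0703). The fall between genotypes, the fall in CON and the difference in response all use the same 9mCON libraries. They are not separate pieces of information. The responses differed between genotypes by 0.67 ± 0.20 (adjusted p = 0.0448). That call was lost when any of 14 of the 20 libraries was left out, and was kept without 9mCON replicate 1, 9mCON+RM replicate 4, 9mTSCmKO replicate 2 or 4 or 9mTSCmKO+RM replicate 4 or 5. The highest adjusted p was 0.0878, without 9mTSCmKO+RM replicate 1.

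At 3 months Ivd was at 107, 108, 143, 138 and 117 CPM in 3mCON and at 86.5, 98.6, 99.6, 112 and 107 CPM in 3mTSCmKO, which overlapped (log2 fold change -0.28 ± 0.14, adjusted p = 0.165). Every 9mCON library was above every 3mCON library, though Ivd was not called between those groups. Rapamycin-treated libraries had Ivd at 101, 139, 115, 128 and 71.0 CPM in 3mCON+RM and at 104, 90.3, 77.6, 64.5 and 61.4 CPM in 3mTSCmKO+RM. The treated groups differed (-0.47 ± 0.14, adjusted p = 0.0260), but not without 3mCON+RM replicate 2, 3 or 4 or 3mTSCmKO+RM replicate 3, 4 or 5. In CON at 3 months its change with rapamycin did not pass the threshold (-0.15 ± 0.14, adjusted p = 0.890 against -0.9997 ± 0.14 at 9 months), and the difference between these responses was not tested.

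Among the later enzymes of leucine breakdown, Mccc1 and Mccc2 fell with rapamycin in some groups of both genotypes. Mccc2, the beta subunit of methylcrotonyl-CoA carboxylase, fell in 9mCON+RM (-0.64 ± 0.12, adjusted p = 0.000576), in 3mTSCmKO+RM (-0.53 ± 0.12, adjusted p = 0.00124) and in 3mCON+RM (-0.52 ± 0.12, adjusted p = 0.0332), and had -0.24 ± 0.12, adjusted p = 0.129 in 9mTSCmKO+RM. Mccc1, its alpha subunit, fell in 9mTSCmKO+RM (-0.45 ± 0.099, adjusted p = 0.000505), 3mTSCmKO+RM (-0.28 ± 0.098, adjusted p = 0.0341) and 9mCON+RM (-0.30 ± 0.099, adjusted p = 0.0390), and had -0.31 ± 0.099, adjusted p = 0.166 in 3mCON+RM. The call of Mccc1 in 3mTSCmKO+RM was lost without 3mTSCmKO replicate 1, 2 or 3 or 3mTSCmKO+RM replicate 4 or 5, and that in 9mCON+RM without 9mCON replicate 2 or 4 or 9mCON+RM replicate 1, 2, 3 or 4. The call of Mccc2 in 3mCON+RM was lost without any library other than 3mCON replicate 1 or 3mCON+RM replicate 2 or 3. Between genotypes Mccc2 fell at 9 months (-0.48 ± 0.12, adjusted p = 0.00196) and Mccc1 at 3 months (-0.35 ± 0.098, adjusted p = 0.00873), while Mccc1 had -0.16 ± 0.098, adjusted p = 0.207 at 9 months and Mccc2 -0.042 ± 0.12, adjusted p = 0.851 at 3 months. Auh, which hydrates the next intermediate, fell at 9 months between genotypes (-0.38 ± 0.13, adjusted p = 0.0258) and rose in 3mTSCmKO+RM (0.42 ± 0.14, adjusted p = 0.0198), and both calls were lost without single libraries (9mCON replicate 3 or 4 or 9mTSCmKO replicate 2 for the former, 3mTSCmKO replicate 3 or 3mTSCmKO+RM replicate 2 for the latter).

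Propionyl-CoA, an end product of valine and isoleucine breakdown, is carboxylated by the enzyme built from Pcca and Pccb. Pcca (chr14:122534324-122891100, plus strand) was at 35.6, 51.5, 47.7, 51.6 and 46.9 CPM in 9mCON and at 24.4, 30.6, 31.5, 30.4 and 29.0 CPM in 9mTSCmKO, without overlap (log2 fold change -0.68 ± 0.095, adjusted p = 3.38e-07). In the 3-month vehicle groups it was at 47.5, 49.4, 41.1, 43.2 and 40.5 CPM in 3mCON and at 35.1, 31.7, 32.6, 30.0 and 33.1 CPM in 3mTSCmKO, again all lower (log2 fold change -0.45 ± 0.094, adjusted p = 0.000475). In the treated groups, Pcca was at 38.2, 40.6, 32.7, 35.2 and 40.6 CPM in 9mCON+RM and at 34.0, 29.9, 31.3, 30.3 and 27.9 CPM in 9mTSCmKO+RM. These differed (log2 fold change -0.29 ± 0.095, adjusted p = 0.0252), but not without 9mCON+RM replicate 2 or 5 or 9mTSCmKO+RM replicate 2, 4 or 5. At 3 months the treated values were 31.01, 38.9, 33.9, 31.1 and 29.9 CPM in 3mCON+RM and 33.7, 33.5, 35.6, 31.8 and 34.3 CPM in 3mTSCmKO+RM, which overlapped (0.037 ± 0.094, adjusted p = 0.897).

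With rapamycin Pcca fell in 9mCON (-0.32 ± 0.094, adjusted p = 0.0227) and in 3mCON (-0.43 ± 0.094, adjusted p = 0.0183) but had 0.073 ± 0.095, adjusted p = 0.587 in 9mTSCmKO and 0.056 ± 0.094, adjusted p = 0.723 in 3mTSCmKO. The responses of the genotypes differed at 3 months (0.48 ± 0.13, adjusted p = 0.0297) and had 0.39 ± 0.13, adjusted p = 0.0795 at 9 months. The call at 3 months was lost without 3mCON replicate 1 or 2, 3mCON+RM replicate 1, 4 or 5, 3mTSCmKO replicate 4 or 3mTSCmKO+RM replicate 3, with a highest adjusted p of 0.0642. The falls in CON were lost without 9mCON replicate 2 or 4 or 9mCON+RM replicate 3 or 4 at 9 months, and without 3mCON replicate 1 or 2 or 3mCON+RM replicate 1, 4 or 5 at 3 months. Pccb was lower in TSCmKO at 9 months (-0.47 ± 0.11, adjusted p = 0.00109) and likewise in the 3-month groups (-0.37 ± 0.11, adjusted p = 0.0155), the latter not past the threshold without 3mCON replicate 5 (adjusted p = 0.0520), and also in the treated groups at 9 months (-0.42 ± 0.11, adjusted p = 0.00699, and an adjusted p of 0.0619 with only the groups compared) and 3 months (-0.35 ± 0.11, adjusted p = 0.0400), the last lost without any library other than 3mTSCmKO+RM replicate 1. Hibch, a hydrolase of valine breakdown, was higher in 3mTSCmKO+RM than in 3mCON+RM (0.46 ± 0.15, adjusted p = 0.0445), a call lost without any library other than 3mCON+RM replicate 2 or 3mTSCmKO+RM replicate 5, and had 0.28 ± 0.15, adjusted p = 0.138 and 0.026 ± 0.15, adjusted p = 0.931 between the vehicle groups.

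Of 40 other genes of these pathways, from a list written by function, 39 were tested and Bcat1, the cytosolic aminotransferase, did not reach 1 CPM in 5 libraries. Between genotypes 7 rose and 9 fell at 9 months (median log2 fold change 0.0048, against 37.9% of all genes called) and 5 rose and 5 fell at 3 months (median 0.092, against 19.8%). The strongest rises were in Slc25a13, an aspartate-glutamate carrier of the malate-aspartate shuttle (2.93 ± 0.38, adjusted p = 9.36e-08 at 9 months and 2.36 ± 0.40, adjusted p = 2.26e-05 at 3 months), and in Me2, the mitochondrial malic enzyme (2.35 ± 0.18, adjusted p = 2.62e-13 and 1.204 ± 0.17, adjusted p = 1.31e-06). Both were low genes, Slc25a13 at 0.426 ± 0.0552 TPM in 9mCON and 4.00 ± 1.30 TPM in 9mTSCmKO, and Me2 at 2.54 ± 0.791 and 13.5 ± 1.88 TPM. The main carrier of that kind in muscle, Slc25a12, fell at 9 months (-0.41 ± 0.12, adjusted p = 0.00748). Sdha, the flavoprotein of succinate dehydrogenase, fell at both ages (-0.34 ± 0.13, adjusted p = 0.0381 and -0.39 ± 0.13, adjusted p = 0.0337), calls lost without 9mCON replicate 3, 4 or 5 or 9mTSCmKO replicate 1, 3 or 5 at 9 months, and without any library other than 3mCON replicate 3 or 3mTSCmKO replicate 5 at 3 months. Acat1, of ketone and isoleucine metabolism, fell as well (-0.49 ± 0.10, adjusted p = 0.000191 and -0.57 ± 0.10, adjusted p = 4.04e-05). The calls of Slc25a12 and Sdha at 9 months were lost both with only the groups compared and on log2 TPM values with limma, and that of Sdha at 3 months with limma and with no filter.

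With rapamycin in TSCmKO, 4 of the 39 rose and 11 fell at 9 months (median -0.022, against 32.6% of all genes called), and 2 rose and 12 fell at 3 months (median -0.22, against 23.6%). Got1, the cytosolic aspartate aminotransferase of the shuttle to which Mdh1 belongs, fell at 9 months (-1.21 ± 0.13, adjusted p = 8.49e-09) and 3 months (-0.79 ± 0.13, adjusted p = 1.7e-05), with a response that differed from that of CON at 9 months (-0.96 ± 0.19, adjusted p = 0.00175). Oxct1, which activates ketone bodies, fell in TSCmKO (-0.68 ± 0.11, adjusted p = 1.62e-05 and -0.85 ± 0.11, adjusted p = 4.39e-07) and in CON (-0.44 ± 0.11, adjusted p = 0.00887 and -0.54 ± 0.11, adjusted p = 0.0139). Ppm1k, the phosphatase that activates BCKDH, also fell in TSCmKO (-0.70 ± 0.17, adjusted p = 0.00170 and -0.69 ± 0.17, adjusted p = 0.00240) and in CON (-0.66 ± 0.18, adjusted p = 0.0108 and -0.73 ± 0.18, adjusted p = 0.0328), these 2 genes being all of the 39 that fell in CON. At 3 months in CON the call of Oxct1 was lost without 3mCON replicate 1 or 3mCON+RM replicate 2 or 4, and that of Ppm1k without any library other than 3mCON replicate 2. Both were lost on log2 TPM values with limma, that of Ppm1k also with no filter, and the call of Oxct1 in 9mCON+RM was lost with only the groups compared and with limma and no filter. Klf15, a Krüppel-like factor known to induce branched-chain catabolism including Bcat2, fell in TSCmKO at 9 months (-0.59 ± 0.17, adjusted p = 0.00712) and likewise in the 3-month groups (-1.36 ± 0.17, adjusted p = 1.32e-07), rose between genotypes at 3 months (0.61 ± 0.17, adjusted p = 0.00725), and responded to rapamycin differently from CON at 3 months (-1.14 ± 0.24, adjusted p = 0.00374). Pdpr, the regulatory subunit of the phosphatase to which Pdp1 belongs, fell between genotypes at 9 months (-1.12 ± 0.35, adjusted p = 0.0114) and rose there with rapamycin (1.199 ± 0.35, adjusted p = 0.00863), opposite in both comparisons to Pdp1, but its fall was lost without 9mCON replicate 5 (adjusted p = 0.119), and both calls were lost with only the groups compared. The pairs of comparisons within one age share their TSCmKO vehicle libraries.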

How the data were processed

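Poly(A) RNA of whole EDL muscle was sequenced with strand-specific reads in 40 libraries. Per the submitters' processing notes, the authors trimmed with cutadapt 1.9.1 and quantified transcripts with kallisto 0.43.1 on GRCm38. The deposited tables hold estimated counts per gene and TPM values, and 0 columns were left unmapped to a sample. The estimated counts were rounded to whole numbers.

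The genes tested had at least 1 CPM in at least 5 of the 40 libraries. The main test was edgeR 4.0.16 (R 4.3.3), quasi-likelihood F-test, two-sided, with TMM scaling, robust dispersion and 8 group means over all 40 libraries. P-values were adjusted by Benjamini-Hochberg over all 13543 genes, at a threshold of 0.05. Standard errors were the absolute log2 fold change divided by the square root of F. CPM in the text are scaled by TMM. The steps were tested on simulated data. Alternatives were other scalings and filters, DESeq2 1.42.0, only the groups compared, insert size as a term (without 9mTSCmKO+RM replicate 5, which has no value for it), a replicate block, limma 3.58.1 on log2(TPM + 1) and log2(TPM + 0.1), and leaving out each library. Total counts of 8883870 to 35224669 limit precision mostly for low genes such as Pdk3.

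All 37 members are named. Given in full are, in each role, the member with the largest fold change past the threshold in a genotype comparison or a rapamycin comparison in TSCmKO, and each member past the threshold in an interaction. Members and lists were chosen with earlier results of these data known. Promoter windows are from RefSeq (GRCm38.p6), where 34 of the 37 members had an entry. Gene coordinates are on GRCm38. Libraries of different groups with the same replicate number were treated as unpaired. In 0 of 28 pairs of groups did all same-numbered libraries deviate together with a correlation over 0.1, and the correlations ran from -0.363 to 0.412. In 9mCON+RM and 9mTSCmKO+RM the median was 0.14, and 3 of the correlations were over 0.1. This check cannot exclude a pairing by litter or batch, since it looked only at libraries of the same number.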

Additional observations from a re-analysis of the deposited data

Results flagged for a closer look

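In 25 of 296 sets of 5 libraries (1 gene in 1 group), the highest or lowest library stood apart by Dixon's criterion at the 95% level, which is 8.45% where chance gives about 5%. 9mTSCmKO+RM replicate 1 was the high library in 7 of the 25, with Idh2 at 401 CPM, Idh3b at 515 CPM, Idh3g at 582 CPM, Mdh1 at 528 CPM, Mdh2 at 888 CPM, Bcat2 at 58.6 CPM and Pccb at 70.5 CPM. Without this library the count of members called was 14 both in 9mTSCmKO+RM against 9mTSCmKO and in 9mTSCmKO+RM against 9mCON+RM.

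9mCON replicate 2 was high in Mdh1 (687 CPM), Hibch (72.7 CPM) and Pccb (108 CPM), and 9mTSCmKO replicate 3 in Hibch (76.1 CPM) and Pccb (77.9 CPM). 9mTSCmKO replicate 1 was low in Fh1 (117 CPM) and Bckdhb (27.4 CPM), and 9mCON replicate 1 in Dlst (196 CPM) and Dlat (160.2 CPM). At 3 months 3mTSCmKO replicate 4 was high in Idh2 (412 CPM) and Mpc1 (383 CPM), and 3mTSCmKO replicate 5 in Suclg1 (224 CPM) and Dbt (64.1 CPM). The others were Pdha1 in 3mTSCmKO replicate 2 (low, 576 CPM), Pdhb in 3mTSCmKO+RM replicate 4 (low, 246 CPM), Pcx in 3mTSCmKO+RM replicate 5 (high, 53.5 CPM), Dlst in 3mCON+RM replicate 2 (high, 291 CPM) and Dlst in 9mCON+RM replicate 3 (low, 248 CPM).

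Effects differed between groups in 8 tests of the difference itself (edgeR, log2 scale). The genotype effect of Pdk3 was larger at 9 than at 3 months by 2.27. The effect of rapamycin in 9mTSCmKO minus that in 9mCON was -0.74 for Mdh1, -1.66 for Pdk3, -1.16 for Pdp1 and 0.67 for Ivd. At 3 months this difference was -1.29 for Pdp1, -1.19 for Bcat2 and 0.48 for Pcca.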

How the results depend on the processing

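No log2 fold change of a member or related gene that was past the threshold changed sign under any alternative run, but the balance of members called did. It went from 3 higher and 9 lower to 5 and 4 with limma for 9mTSCmKO+RM against 9mCON+RM (4 and 4 with only the groups compared), from 5 higher and 3 lower to 5 and 6 with limma for 9mTSCmKO against 3mTSCmKO, and from 1 higher and 3 lower to 3 and 3 with upper-quartile scaling for the rapamycin effect between genotypes at 9 months. Leaving out 1 library at a time gave 17 to 20 members called for 9mTSCmKO against 9mCON, 10 to 13 for 3mTSCmKO against 3mCON, 11 to 14 for 9mTSCmKO+RM against 9mTSCmKO, 9 to 13 for 3mTSCmKO+RM against 3mTSCmKO, 3 to 7 for 9mCON+RM against 9mCON, 0 to 2 for 3mCON+RM against 3mCON, 7 to 14 for 9mTSCmKO+RM against 9mCON+RM, 3 to 8 for 3mTSCmKO+RM against 3mCON+RM, 5 to 8 for 9mTSCmKO against 3mTSCmKO and 0 to 2 for 9mCON against 3mCON. It gave 1 to 2 for the genotype effect between ages, and 2 to 5 at 9 months and 2 to 3 at 3 months for the rapamycin effect between genotypes. With no filter on low counts the members called were 3 for 9mCON+RM against 9mCON, 0 for 3mCON+RM against 3mCON, 4 for 3mTSCmKO+RM against 3mCON+RM (also 4 with limma and no filter) and 2 for the rapamycin effect between genotypes at 9 months. With only the groups compared in the model they were 13 for 9mTSCmKO against 9mCON, 8 for 9mTSCmKO+RM against 9mCON+RM, 3 for 9mCON+RM, 6 for 3mCON+RM, 5 for 9mTSCmKO against 3mTSCmKO and 2 for the rapamycin effect at 9 months. DESeq2 called 5 for 3mCON+RM and 1 for 9mCON against 3mCON, and insert size as a term left 2 for 9mTSCmKO against 3mTSCmKO. With the replicate block the counts were 20 for 9mTSCmKO against 9mCON, 9 for 3mTSCmKO+RM against 3mCON+RM and 6 for 9mTSCmKO against 3mTSCmKO, and it changed no other count of members. The cause of these shifts was not tested. Over all genes, the model with only the groups compared called 2647 for 9mTSCmKO against 9mCON, 2544 for 9mTSCmKO+RM against 9mTSCmKO, 554 for 9mCON+RM, 419 for 3mCON+RM, 2495 for 3mTSCmKO+RM against 3mCON+RM, 3324 for 9mTSCmKO against 3mTSCmKO and 30 for 9mCON against 3mCON, and 312, 209 and 1194 for the interactions in the order above. Insert size left 1701 and 26 between ages. For 3mCON+RM the count was 171 with DESeq2, 38 with no filter, 141 at 5 CPM and 56 with limma and no filter, and 35 to 70 without 1 library. For 9mCON against 3mCON it was 375 with DESeq2, 83 with no filter, 217 with limma on log2(TPM + 1) and 30 to 942 without 1 library. With no filter the rapamycin effect at 9 months had 435, and limma with no filter gave 986 for 9mCON+RM and 282 for the rapamycin effect at 3 months. On log2(TPM + 1) with limma the share of calls that were higher moved from 50.3% to 61.3% for 9mTSCmKO against 9mCON, from 44.9% to 55.2% for 3mTSCmKO+RM against 3mTSCmKO, from 42.5% to 31.2% for 9mCON+RM, from 54.8% to 77.2% for 9mTSCmKO+RM against 9mCON+RM, from 56.5% to 67.0% for 3mTSCmKO+RM against 3mCON+RM, from 66.7% to 28.6% for 9mCON against 3mCON, from 60.8% to 84.7% for the genotype effect between ages and from 39.4% to 51.2% for the rapamycin effect at 3 months. The median of all genes then moved by 0.11 for 9mTSCmKO+RM against 9mCON+RM and by -0.12 for 9mCON against 3mCON (log2). Upper-quartile scaling gave 55.7% for 3mTSCmKO+RM against 3mTSCmKO.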
